A study of Spirodela polyrhiza with 13 samples.

Results

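Stage 6 fronds of Spirodela polyrhiza, the greater duckweed, were compared with stage 2 fronds, the last and the first developmental stage sequenced. The comparison was chosen by stage alone and holds 5 of the 13 RNA sequencing libraries of the series, 2 from stage 6 and 3 from stage 2. Every library came from frond tissue of wild-type plants kept in SH medium under long days, with no treatment labelled, and neither the features that mark a stage nor the age of the fronds is given in the labels. Nothing in the labels tells if replicates were independent cultures, so p-values cover only the spread among these 5 libraries and the others of the fit, and that spread may be technical. The study as titled concerns plant hormones and the pattern of aerenchyma, and the comparison asks which transcripts differ between the first and the last stage sampled.

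Spirodela polyrhiza is a small floating plant of the duckweed family. Its leaf-like body, the frond, buds off daughter fronds from pouches near its base, and each daughter first grows by cell division and then by expansion. Aerenchyma is tissue with large gas-filled spaces that lets air move inside the plant and helps the frond to float. In plants such spaces form either by separation of neighbouring cells or by death and breakdown of cells, and ethylene and auxin are among the hormones known to bear on them. A frond holds several cell types, so in RNA of whole fronds a change in the number of cells of a type and a change in the RNA of each cell cannot be told apart.

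The deposited values were FPKM, that is, fragments on a gene scaled to its length and to the fragment total of its library. The table held 19623 gene IDs without names, and no annotation that pairs them with names was used here. Genes are therefore described by level, coding length, size of change and behaviour at the other stages, and only 4 are given by ID. For the same reason frond identity could not be checked against marker genes, and no hormone, cell wall or cell death gene could be picked out. A gene was tested if it reached at least 1 FPKM in at least 2 of the 5 libraries, which 15380 genes (78.4%) did. In 2479 genes no read was seen in the 5 libraries, and 1764 genes with reads stayed under the minimum. At the edge of that minimum, 88 genes had their second-highest value between 1 and 1.1 FPKM, with a median of 32 reads over the 5 libraries, and 76 had it between 0.9 and 1 FPKM, with a median of 24.5 reads.

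The library totals recovered from the FPKM values were 7724315 and 8884349 reads at stage 6, against 8928894, 9619295 and 10910370 reads at stage 2, so that both stage 6 libraries were shallower than every stage 2 library. Libraries of a stage were alike across the tested genes. The correlation of log2(FPKM + 1) was 0.983 between the stage 6 libraries and 0.987 to 0.989 between the stage 2 libraries, while pairs with 1 library from each stage lay between 0.790 and 0.821. Within a stage, the median gene had an SD of 0.14 on the log2(FPKM + 1) scale in the 2 stage 6 libraries and also in the 3 stage 2 libraries. Libraries of the same stage differed by more than counting noise, with a chi-square per gene of 11.4 at stage 6 and of 6.93 to 8.87 at stage 2, so none was a second copy of another.

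Most of the measured genes differed between stage 6 and stage 2 fronds. Of the 15380 tested genes, 11535 (75.0%) were called at an adjusted p under 0.05 by limma, of which 4340 (28.2%) rose and 7195 (46.8%) fell at stage 6. The median tested gene had a log2 change of -0.29, stage 6 minus stage 2, and the median size of a change regardless of sign was 0.82. That size is several times the spread of a typical gene within a stage. The libraries of both stages did not overlap for 12779 genes (83.1%). Of these, 4896 genes (31.8%) had both stage 6 libraries above all stage 2 libraries, and 7883 (51.3%) had both below.

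The split between rises and falls depended on how libraries were put on a common scale. FPKM sets every gene against one library total, and genes of a library therefore cannot all go up. When each library was divided by its median ratio to the average library, the log2 change of the median tested gene moved up from -0.29 to 0.02. On that scale calls came to 11167 genes (72.6%), with 5723 rises (37.2%) and 5444 falls (35.4%), so that 51.2% of called genes were rises, against 37.6% as deposited. No called gene changed direction between the scales. All 4340 genes called as rises in the deposited values were also rises after scaling. Scaling divided the stage 6 libraries by smaller factors than the stage 2 libraries and so moved every change up. Rises could therefore only grow, and that they were kept is no test of them. Of the deposited falls, 5444 were also falls after scaling and 1751 were not called, and 1383 further genes were called as rises.

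Rises outnumbered falls at 4-fold and above on both scales. At least 2-fold on the log2(FPKM + 1) scale, 2613 genes (17.0%) rose and 3577 (23.3%) fell as deposited, but after median ratio scaling 3385 rose and 2036 fell, so that the majority turned from falls to rises. At least 4-fold, 1010 genes (6.57%) rose and 215 (1.40%) fell, so that 82.4% of changes of this size were rises. At least 16-fold, 119 genes rose and none fell. After median ratio scaling, 1345 genes rose and 66 fell at least 4-fold (95.3% rises), and 163 rose and none fell at least 16-fold. The 4-fold counts also moved with the pseudocount, to 1419 rises and 526 falls with 0.1 FPKM and to 1410 rises and 576 falls with 0.01 FPKM, and voom on recovered reads gave 1802 rises and 209 falls. The largest log2 change was 7.09 among rises and -3.57 among falls. These extremes and the 16-fold counts are given at a pseudocount of 1 FPKM only, which understates changes of genes near 1 FPKM.

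**Figure D1:**
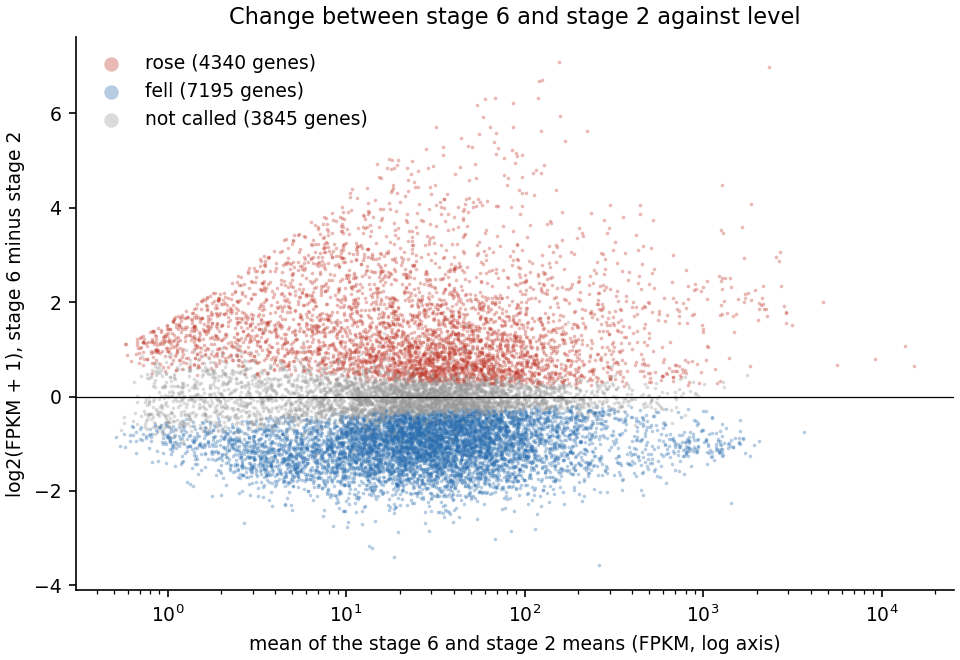
Change between stage 6 and stage 2 (vertical axis, log2(FPKM + 1), stage 6 minus stage 2) against the mean of both stage means (horizontal axis, FPKM on a log axis) for the 15380 tested genes, 1 point per gene. Red points rose, blue points fell and grey points were not called (limma, adjusted p under 0.05). The rises reach 7.09 and the falls reach -3.57.

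The count of large falls rested on the stage 6 library taken. In stage 6 replicate 1, 435 of the tested genes lay at least 4-fold below their stage 2 mean, and in stage 6 replicate 2, 139 did. The 215 genes called as falls of that size rested on both libraries, and 435 were called without stage 6 replicate 2 and 139 without stage 6 replicate 1. Large rises did not depend on the library in this way, with 1052 genes at least 4-fold above the stage 2 mean in replicate 1 and 1002 in replicate 2. The 7195 genes that fell had a median of -1.05 in replicate 1 and of -0.94 in replicate 2 relative to stage 2, on the log2(FPKM + 1) scale.

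The level of each set is given at both stages. The 4340 genes that rose had a median level of 37.4 FPKM at stage 6 and of 14.3 FPKM at stage 2, and a median log2 change of 1.21. The 7195 genes that fell had a median level of 18.1 FPKM at stage 6 and of 37.7 FPKM at stage 2, and a median log2 change of -0.997. Among the 1010 genes that rose at least 4-fold the median level was 37.5 FPKM at stage 6 and 3.62 FPKM at stage 2. Among the 119 genes that rose at least 16-fold it was 94.9 FPKM at stage 6 and 1.94 FPKM at stage 2. These levels describe genes chosen for their change in the same libraries and carry no test.

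Change was seen at every level of expression. Genes were grouped by the mean of their stage 6 and stage 2 means. Under 1 FPKM, 88 of 246 genes rose (35.8%) and 52 fell (21.1%), and this was the only one of the 6 classes with more rises than falls in the deposited values. The minimum for testing and the class bound partly set that order. A gene here that passed through both stage 6 libraries had to have a lower stage 2 mean. From 1 to 5 FPKM, 622 of 1935 genes rose (32.1%) and 698 fell (36.1%). From 5 to 20 FPKM, 1113 of 4161 genes rose (26.7%) and 1955 fell (47.0%). From 20 to 100 FPKM, the class with most genes, 1785 of 6921 rose (25.8%) and 3496 fell (50.5%). From 100 to 500 FPKM, 593 of 1758 genes rose (33.7%) and 813 fell (46.2%). Above 500 FPKM, 139 of 359 genes rose (38.7%) and 181 fell (50.4%), and 39 were not called. In that top class 48 genes (13.4%) rose at least 4-fold and 1 fell as much, beside 6.57% and 1.40% of all tested genes. Its median change regardless of sign was 1.02 on the log2(FPKM + 1) scale, the largest of the 6 level classes. The pseudocount understates changes in the low classes, so neither this order nor the shares of 4-fold rises compare the classes on equal terms. After median ratio scaling the order of rises and falls turned in 3 classes. From 1 to 5 FPKM 37.6% then rose and 29.1% fell, from 100 to 500 FPKM 44.4% rose and 32.5% fell, and above 500 FPKM 44.0% rose and 43.2% fell. Falls stayed ahead from 5 to 20 FPKM, with 34.6% rises and 36.9% falls, and from 20 to 100 FPKM, with 36.4% rises and 37.2% falls. Under 1 FPKM 40.7% rose and 17.9% fell on that scale.

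The share of falls was highest among the longest genes. Among genes with a coding length of 1572 bases or more, 880 of 3837 rose (22.9%) and 2135 fell (55.6%), with a median log2 change of -0.48. From 1029 to 1569 bases, 1125 of 3839 genes rose (29.3%) and 1763 fell (45.9%), and from 612 to 1026 bases, 1238 of 3857 rose (32.1%) and 1622 fell (42.1%). In genes of up to 609 bases, 1097 of 3847 rose (28.5%) and 1675 fell (43.5%), with a median log2 change of -0.26. After median ratio scaling the longest genes still had more falls (43.1%) than rises (31.6%), while each of the 3 shorter classes had more rises than falls. The genes that rose at least 4-fold had a median coding length of 865.5 bases, those that fell at least 4-fold 828 bases, and all tested genes 1026 bases.

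The reads of a library moved from one set of genes to another. The genes that rose took up 51.9% and 48.7% of the reads of the stage 6 libraries, against 20.0%, 19.8% and 18.2% of the reads of the stage 2 libraries. The genes that fell took up 30.2% and 33.4% at stage 6, against 61.7%, 62.3% and 63.9% at stage 2. The shares at the end stages follow from how the sets were chosen and are a description. The genes that were not called held 17.9% in both stage 6 libraries, and 18.3%, 17.9% and 17.9% at stage 2.

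The libraries of stages 3, 4 and 5 entered the contrast of stage 6 with stage 2 only through the shared estimate of spread, and they showed the same shift part of the way. Genes that rose at stage 6 over stage 2 held a mean of 25.6% ± 1.43 of the reads at stage 3, 28.8% ± 1.26 at stage 4 and 41.8% ± 0.0163 at stage 5, each with its SD over 3, 3 and 2 libraries. Genes that fell held 55.1% ± 1.44 at stage 3, 51.7% ± 1.31 at stage 4 and 39.7% ± 0.450 at stage 5. At stage 5 the rising set already took up more reads than the falling set in both libraries, and at stages 3 and 4 it took up fewer in every library. The 119 genes that rose at least 16-fold held 0.160% ± 0.0377 of the reads at stage 3, 0.315% ± 0.0480 at stage 4 and 1.12% ± 0.0502 at stage 5. Their share was 1.66% and 1.68% in the stage 6 libraries, against 0.0515%, 0.0524% and 0.0482% in the stage 2 libraries.

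**Figure D2:**
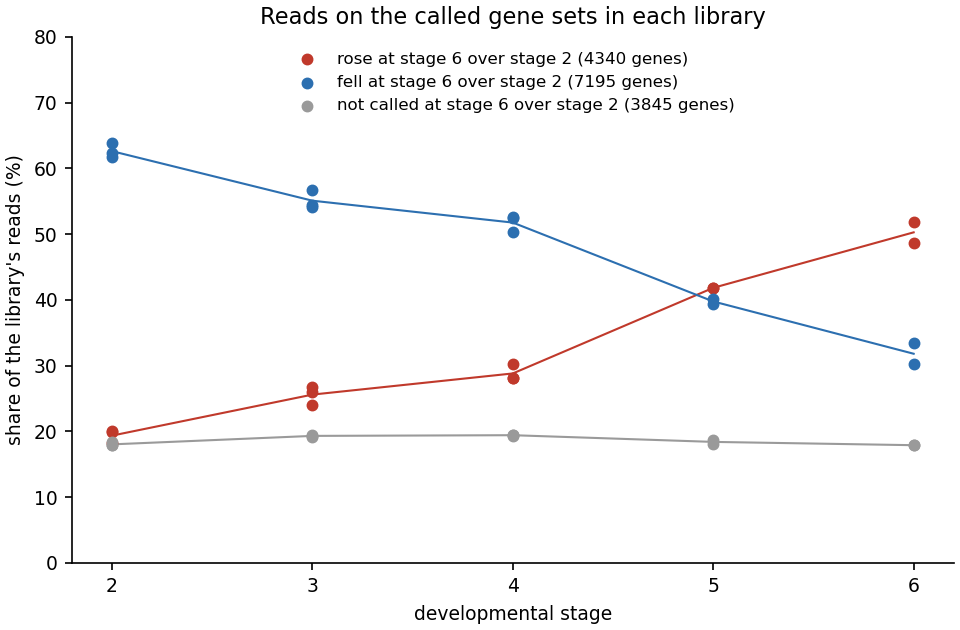
Share of each library's reads (vertical axis, %) on the 4340 genes that rose (red), the 7195 that fell (blue) and the 3845 that were not called (grey) at stage 6 over stage 2, by developmental stage (horizontal axis). Points are libraries and lines join stage means. The red and blue sets change places between stage 4 (28.8% and 51.7%) and stage 5 (41.8% and 39.7%).

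In shares of library reads, the gain was held by fewer genes than the loss. Between the stage 2 and stage 6 means, 32.0% of a library's reads were gained by 6088 tested genes and 32.0% were lost by 9292 others. The 10 genes with the greatest gain held 10.8% of it, and the 10 with the greatest loss held 3.32% of that. The first 100 genes of each ranking held 41.0% of the gain and 16.9% of the loss. The top 180 genes were enough for 50% of the gain, and 764 were needed for 50% of the loss. The shares of a library add up to a fixed total, so gain and loss had to be about equal. Genes gaining and losing were not counted on the median ratio scale, which moves every change up, and these numbers may differ on it. Within single libraries, 1029 and 1084 genes held 50% of the reads at stage 6, against 1429, 1427 and 1403 genes at stage 2. The 10 genes with most reads held 4.86% and 4.58% at stage 6, against 2.32%, 2.33% and 2.42% at stage 2. Libraries of the stages did not overlap in either measure. An exact permutation test, made two-sided by doubling the one-sided p, gave a p of 0.2 for each. That is the smallest value which this form of the test gives with 2 against 3 libraries.

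More genes were above the detection minimum at stage 6, although each of its libraries held fewer reads. The counts given here are of deposited values and were not taken on the median ratio scale. That scale divided the stage 6 libraries by 0.852 and 0.857 and the stage 2 libraries by 1.07, 1.08 and 1.07. It raises stage 6 values against stage 2 values, so the gaps may differ on it. At least 1 FPKM was reached by 14981 and 15146 of all listed genes at stage 6, against 14599, 14692 and 14641 at stage 2. Fewer genes reached 100 FPKM, with 2050 and 2067 at stage 6, against 2182, 2241 and 2204 at stage 2. Neither measure overlapped between the stages, with an exact two-sided permutation p of 0.2 for each. At 500 FPKM and more there was no such gap, with 362 and 360 genes at stage 6, against 365, 368 and 344 at stage 2 (exact permutation p = 1).

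By a rule on size alone, the 2 top rises and the 2 top falls in mean FPKM are given by ID, among called genes whose libraries did not overlap. The call and the lack of overlap were conditions of that choice and are no test of these genes. The files give none of them a name or a function. All 4 were among the 15 highest genes of every stage 2 library, which is what a rule on the difference in FPKM favours.

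The largest rise in mean FPKM was that of Spipo14G0042700, with a coding length of 537 bases. It had 18956 and 17513 FPKM in the stage 6 libraries, against 8977, 9161 and 8052 FPKM in the stage 2 libraries. Both stage 6 values lay far above every stage 2 value. The mean was 18234 ± 1020.3 FPKM over the stage 6 libraries (SD, n = 2) and 8730.2 ± 594 FPKM over the stage 2 libraries (SD, n = 3), a ratio of 2.09. The log2 change was 1.06 (SE 0.13, adjusted p = 7.43e-06, limma). It made up 1.02% and 0.940% of all reads at stage 6, against 0.482%, 0.492% and 0.432% at stage 2. Its means at the stages between were 11925 ± 822 FPKM at stage 3, 13612 ± 487 FPKM at stage 4 and 15570 ± 453 FPKM at stage 5, so that every stage mean lay above the one before.

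Spipo23G0000600 had the next largest rise and a coding length of only 159 bases. Its levels were 19728 and 17243 FPKM at stage 6, against 12303, 12692 and 10528 FPKM at stage 2. All stage 6 values were above all stage 2 values, and the log2 change was 0.64 (SE 0.17, adjusted p = 0.00441, limma). The stage 6 libraries averaged 18485 ± 1757 FPKM (SD, n = 2) and the stage 2 libraries 11841 ± 1154 FPKM (SD, n = 3). Unlike Spipo14G0042700, it did not climb through the stages, with means of 11053 ± 1970 FPKM at stage 3, 11575 ± 731 FPKM at stage 4 and 19468 ± 2587 FPKM at stage 5. This gene had the highest FPKM of all in every stage 2 library and in stage 6 replicate 1, and Spipo14G0042700 had it in stage 6 replicate 2. Quantile normalization, which gives the top ranks of all libraries the same values, left neither rise called, with log2 changes of -0.12 for Spipo23G0000600 (adjusted p = 0.406, limma) and 0.12 for Spipo14G0042700 (adjusted p = 0.406, limma).

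The largest fall in mean FPKM was that of Spipo3G0004100, with a coding length of 408 bases. It had 504 and 477 FPKM in the stage 6 libraries, against 2255, 2774 and 2094 FPKM in the stage 2 libraries. The stages were far apart, and the stage 6 values were close together. The stage 2 mean of 2374 ± 355 FPKM (SD, n = 3) was 4.84 times the stage 6 mean of 490.4 ± 19.0 FPKM (SD, n = 2). The change on the log2 scale came to -2.26 (SE 0.12, adjusted p = 1.81e-08, limma), and 0.455% of the tested genes had a lower one. It stood between ranks 7 and 15 by FPKM in the stage 2 libraries, and at ranks 357 and 382 at stage 6. The means between were 2068 ± 137 FPKM at stage 3, 1840.1 ± 103 FPKM at stage 4 and 837 ± 61.2 FPKM at stage 5.

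Spipo2G0105900, with a coding length of 297 bases, had the next largest fall in mean FPKM. It had 2368 and 3120 FPKM at stage 6, against 4974, 4630.5 and 4102 FPKM at stage 2. The stages did not overlap, but the stage 6 libraries were far apart. The log2 change was -0.74 (SE 0.19, adjusted p = 0.00351, limma). That call did not hold on the median ratio scale, with a log2 change of -0.42 (adjusted p = 0.0689, limma), or without stage 6 replicate 1, with -0.55 (adjusted p = 0.056, limma). Its mean was 4354 ± 966 FPKM at stage 3, 5505 ± 332 FPKM at stage 4 and 2764 ± 687 FPKM at stage 5.

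**Figure D3:**
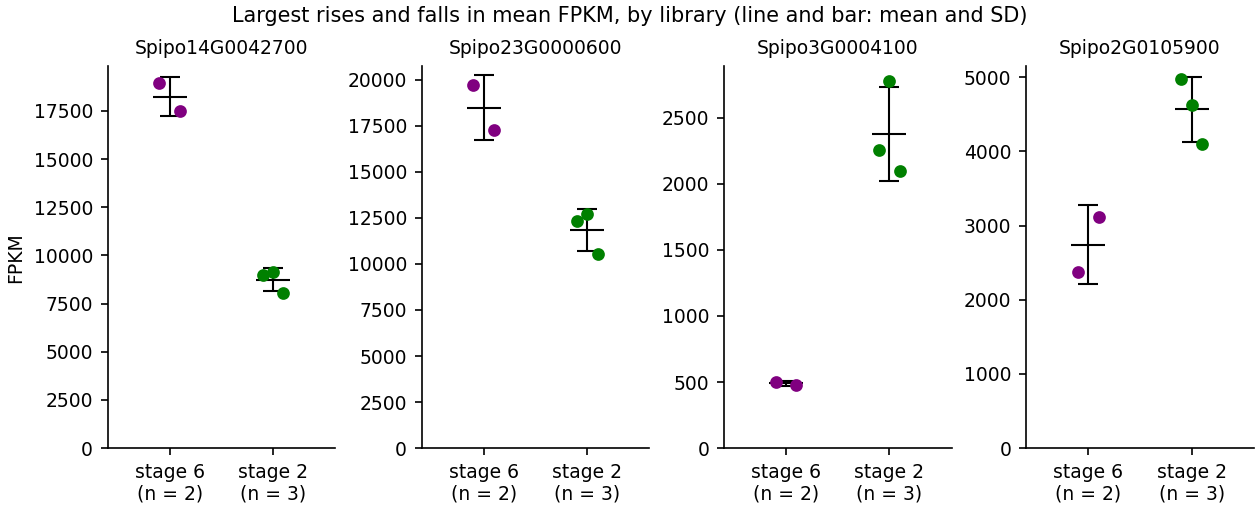
FPKM (vertical axes, starting at 0) of the 4 genes with the largest rises and falls in mean FPKM, with stage 6 (purple, n = 2) and stage 2 (green, n = 3) on the horizontal axes. Points are libraries, and the line and bar are the mean and SD. Libraries of the stages do not overlap in any panel, which the choice of these genes required. The means go from 18234 FPKM at stage 6 against 8730.2 at stage 2 in the first panel to 2744 against 4569 in the last.

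Some genes were near the detection limit at one end of the series. Under 1 FPKM in all stage 2 libraries and at 1 FPKM or more in both stage 6 libraries, there were 509 genes. The opposite pattern was found for 186 genes. Both sets were chosen on the values that the contrast compares, and they passed the minimum only through the stage where they were high, so their counts are a description with no test. With at least 5 FPKM asked of the higher stage, 137 genes were under 1 FPKM at stage 2, and 8 genes were under 1 FPKM at stage 6. With at least 20 FPKM the numbers were 22 and 0, and with at least 100 FPKM 1 and 0. At 5 FPKM the numbers after median ratio scaling were 163 and 2. Of the 137 genes, 11 had no read in any stage 2 library. The 8 genes all had reads at stage 6, with 33 and 30 reads over the set in the libraries of that stage, against 273, 323 and 353 reads at stage 2. The count of 8 was sensitive to the stage 6 libraries, being 13 without stage 6 replicate 1 and 32 without stage 6 replicate 2.

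Nearly all of the 137 genes were above 1 FPKM by stage 5. In both stage 5 libraries 134 of them had 1 FPKM or more, against 32 in all stage 3 libraries and 60 in all stage 4 libraries. The wider set of 509 genes, with at least 1 FPKM asked at stage 6, was less complete by stage 5. In both stage 5 libraries 316 of the 509 had 1 FPKM or more, against 58 in all stage 3 libraries and 128 in all stage 4 libraries. The median level of the 137 genes was 0.554 to 1.05 FPKM in the stage 3 libraries and 0.971 to 1.37 FPKM in the stage 4 libraries. In the stage 5 libraries it was 6.77 and 7.27 FPKM. At the ends it was 11.1 and 11.8 FPKM at stage 6, against 0.299, 0.329 and 0.397 FPKM at stage 2. The reads behind these levels summed to 17765 and 21953 at stage 6, and to 461, 555 and 685 at stage 2. The 8 genes under 1 FPKM at stage 6 went down in smaller steps. Their median levels were 4.24 to 5.36 FPKM in the stage 3 libraries and 3.15 to 3.45 FPKM in the stage 4 libraries. In the stage 5 libraries they were 1.77 and 2.02 FPKM.

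**Figure D4:**
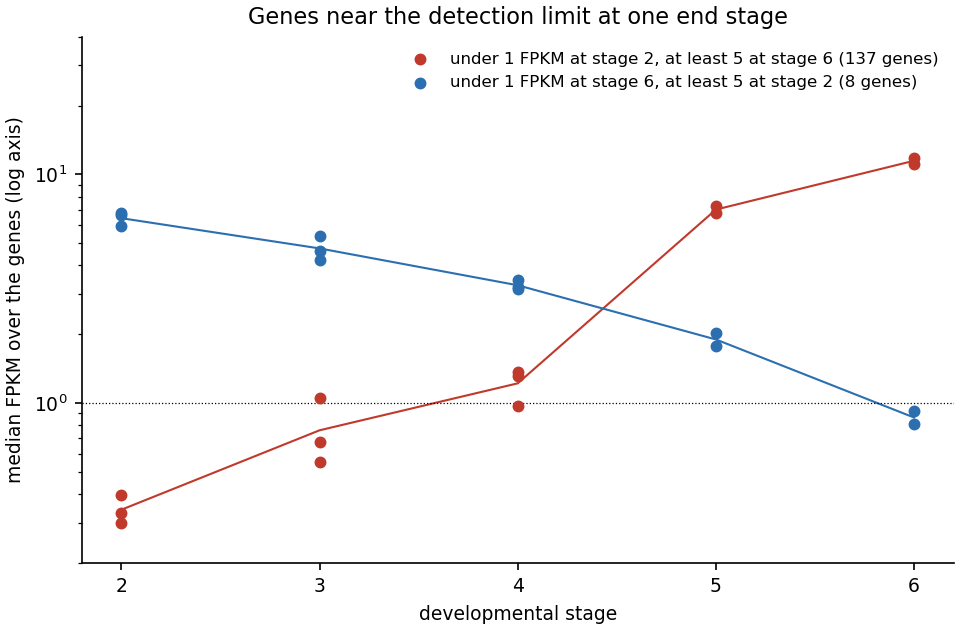
Median FPKM in each library (vertical axis, log axis) of the 137 genes under 1 FPKM at stage 2 and at 5 FPKM or more at stage 6 (red), and of the 8 genes with the opposite pattern (blue), by developmental stage (horizontal axis). Points are libraries, lines join stage means and the dotted line marks 1 FPKM. The red set goes from at most 1.37 FPKM at stage 4 to at least 6.77 FPKM at stage 5, while the blue set declines at every stage.

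The direction of change was looked for again in other libraries. Stage 5 was compared with stage 3, which share no library with stages 6 and 2, over the same 15380 genes and in the same limma fit, so that both contrasts share an estimate of spread. Of these, 8453 genes (55.0%) were called at stage 5 over stage 3, of which 2633 (17.1%) rose and 5820 (37.8%) fell. Among the 4340 genes that rose at stage 6 over stage 2, 2361 (54.4%) also rose at stage 5 over stage 3 and 109 fell. Those 2361 were 89.7% of all genes that rose at stage 5 over stage 3. Among the 7195 genes that fell at stage 6 over stage 2, 4907 (68.2%) also fell at stage 5 over stage 3 and 33 rose. They were 84.3% of the genes that fell at stage 5 over stage 3.

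The share called between the inner stages was higher in sets with a larger change between the end stages. Of the 1010 genes that rose at least 4-fold at stage 6 over stage 2, 875 (86.6%) rose at stage 5 over stage 3 and none fell, with a median log2 change of 1.44. Of the 119 that rose at least 16-fold, 115 rose at stage 5 over stage 3, with a median log2 change of 2.96. Of the 215 that fell at least 4-fold, 196 (91.2%) fell and none rose, with a median log2 change of -1.20. Over all tested genes the median log2 change at stage 5 over stage 3 was -0.24. On the median ratio scale this median was near 0, at -0.0023, and the shares of the deposited sets called in their own direction at stage 5 over stage 3 were 68.9% of rises and 42.0% of falls, beside 25.3% and 21.6% of all tested genes.

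**Figure D5:**
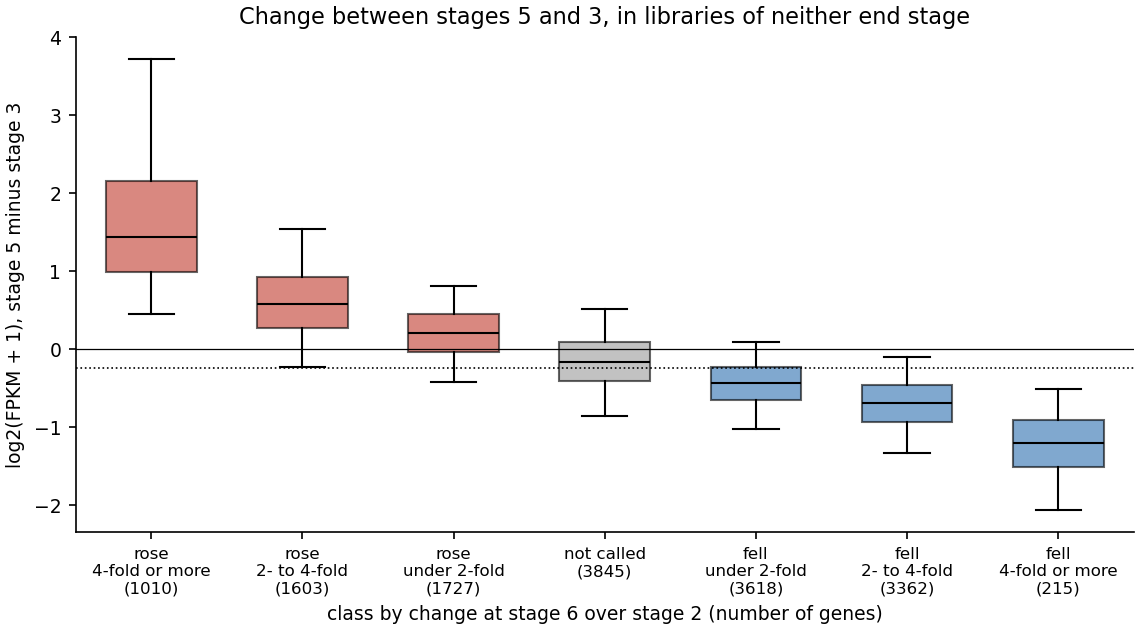
Change between stage 5 and stage 3 (vertical axis, log2(FPKM + 1), stage 5 minus stage 3) for genes in 7 classes by their change at stage 6 over stage 2 (horizontal axis, number of genes in brackets). Boxes span the quartiles with the median as a line, whiskers reach the 5th and 95th percentiles, and the dotted line is the median of all tested genes, -0.24. Medians step down from 1.44 in genes that rose at least 4-fold to -1.20 in genes that fell at least 4-fold.

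For most genes that changed at least 2-fold, stage 5 was the first stage past the midpoint of the change. The position of each middle stage was taken as its share of the log2 distance from stage 2 to stage 6. The median of the 2613 rising genes was 25.4% of the way at stage 3, 33.9% at stage 4 and 74.8% at stage 5. The median of the 3577 falling genes was 22.7% of the way at stage 3, 34.8% at stage 4 and 73.0% at stage 5. These positions share the end-stage libraries with the contrast and are a description. The midpoint was first passed at stage 3 by 296 of the rising genes (11.3%), at stage 4 by 581 (22.2%), at stage 5 by 1414 (54.1%) and at stage 6 by 322 (12.3%). Among the falling genes it was first passed at stage 3 by 137 (3.83%), at stage 4 by 513 (14.3%), at stage 5 by 2661 (74.4%) and at stage 6 by 266 (7.44%). On the median ratio scale stage 5 was still the first past the midpoint for 59.6% of 3385 rising genes and 63.5% of 2036 falling genes. Rising genes spread more widely at stage 4, with quartiles of 11.4% and 57.1% of the way, against 22.1% and 45.7% for falling genes. In 13.2% of rising genes, and in 8.14% of falling ones, stage 5 lay beyond stage 6.

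The 3845 genes that were not called had a median level of 21.6 FPKM at stage 6 and of 21.8 FPKM at stage 2. A missing call does not show that a gene was level, so the 95% confidence interval of each change from limma was read. The interval lay within 1 on the log2 scale, a 2-fold change either way, for 3294 of them (85.7%), and within 0.5 for 1577 (41.0%). Those 1577 had a median level of 39.8 FPKM. On the median ratio scale 3663 of 4213 genes that were not called had an interval within 1, and 1819 had one within 0.5.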

How the data were processed

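RNA of frond tissue was sequenced from stranded messenger RNA libraries, per the labels' protocols. The authors deposited 1 table of FPKM values with 1 column per library. The submitters' processing notes name HTSeq 0.11.3, Picard 2.25.5, HISAT2 2.2.1, Trimmomatic 0.39 and CASAVA 1.8.2. The build, the annotation, the strand setting and any scaling step were not given in the sources used here; overlapping genes and near-identical copies carry an uncertainty that these values cannot resolve.

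Values of log2(FPKM + 1) were tested with limma 3.58.1 in R 4.3.3, with a mean per stage and a mean-variance trend. All 13 libraries entered the fit (8 residual degrees of freedom), so that the spread was shared over the stages. Changes are stage 6 minus stage 2. P-values were adjusted by the Benjamini-Hochberg method over 15380 genes and called under 0.05. The pseudocount of 1 understates changes of genes near 1 FPKM. The direction was checked at stage 5 over stage 3 in the same fit.

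FPKM values within a gene are whole multiples of 1 read. This gave library totals of 7708200 to 10910370 reads over the 13 libraries. Whole reads were reached within 0.001 for 100% of 17445 genes with any value. Lengths were searched only in whole steps of a common unit, which came to 3 bases. That they were multiples of 3 for 100% of 9766 genes over 2000 reads was therefore built in and is no test. They are here called coding lengths, and whether they are the coding part of each gene was not tested. Recovered reads served for depth, read shares, lengths and a voom alternative. The recovery and the fit were tested on simulated data. In the simulated fit only a small part of the genes changed, with direction drawn at random. It therefore did not test how libraries were put on a common scale.

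The genes given by ID were the 2 largest rises and 2 largest falls in mean FPKM among called genes without overlap. The comparison and all groupings were chosen with earlier results of these data known. Lists of hormone, cell wall and marker genes had been planned by product name and could not be applied to bare IDs. Alternatives covered pseudocounts, filters, scalings, the libraries in the fit, weights, a replicate block and leaving out each library.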

Additional observations from a re-analysis of the deposited data

How the results depend on the processing

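Counts of called genes, of rises, of falls and of 2-fold rises stayed within 1.5 times the value reported under every alternative run. The 3577 genes that fell at least 2-fold became 2036 with median ratio scaling. The 215 that fell at least 4-fold became 526 with a pseudocount of 0.1 FPKM, 576 with 0.01 FPKM and 66 with median ratio scaling, and 139 to 435 when 1 library was left out. The 1010 that rose at least 4-fold became 1802 in voom on recovered reads, which also scales by trimmed means. The 8 genes under 1 FPKM at stage 6 and at 5 FPKM or more at stage 2 became 2 with median ratio scaling. Without 1 library they became 9 to 32. The cause was not tested. Leaving out 1 library gave 10241 to 11078 called genes, with 3776 to 4210 rises and 6465 to 6963 falls. A lone stage 6 library was then assumed to vary like the other stages. The share of rises was 51.2% with median ratio scaling and 51.2% in voom, against 37.6% as deposited. Of 64 alternative values of the genes given by ID, 60 kept direction and call, 3 lost the call and 1 reversed, Spipo23G0000600 with quantile normalization (-0.12). Those genes were chosen as called in the main fit, and at their levels pseudocounts and filters leave the change almost as it was. The count of values kept is therefore a description and no test of these genes. Between stages 6 and 2, deviations from the stage means correlated by 0.012 for replicate number 1 and -0.10 for number 2. Deviations of the 2 stage 6 libraries mirror each other, so stage 6 replicate 1 gave 0.10 with stage 2 replicate 2. With stage 2 replicate 3 it gave -0.10. These values therefore cannot tell whether the numbers are paired. The labels link no numbers across stages, and pairing was not assumed. A replicate block gave 11580 called genes (4364 rises, 7216 falls). With 2 libraries at stage 6 the precision is limited by their number: the median 95% interval of an uncalled gene reached 0.36 on the log2 scale to either side.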

Other observations

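The end stages did not show every gene that moved on the way. Of the 3845 genes not called at stage 6 over stage 2, 239 (6.22%) rose at stage 5 over stage 3. In the same contrast 804 (20.9%) fell (limma, adjusted p under 0.05). Both shares were below those of all tested genes, 17.1% and 37.8%. On the median ratio scale the order turned, with 18.3% rises and 7.00% falls in this set, beside 25.3% and 21.6% of all tested genes. In the deposited values, a further 109 genes rose at stage 6 over stage 2 but fell at stage 5 over stage 3. The opposite was seen for 33. Whether the inner and end contrasts differ for a gene was not tested.

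The share of genes that rose varied with the number that follows Spipo in the gene ID, taken here as a bare label and not as a position. Among labels with at least 100 tested genes, the lowest shares were 51 of 262 (19.5%) under label 24 and 32 of 159 (20.1%) under label 27, and the highest was 32.5% of 1340 genes under label 0. Over all tested genes it was 28.2%. These shares were not tested against each other.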
